A study of Mus musculus with 2 samples.

Results

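The Notch genes described here are 10 genes chosen by symbol from the 32285 genes of the deposited tables. They are the receptors *Notch1*, *Notch2* and *Notch3*, the ligands *Dll1*, *Dll3* and *Jag1*, and the hairy-related factors *Hes1*, *Hes5*, *Hes6* and *Hey1*. All 10 were present in the tables and were read across the cell classes of 2 single-cell RNA libraries, C-ON and FMC_new. Both come from optic nerves of Nf1-OPG mice, a model of *Nf1* optic glioma on a C57BL/6 background, with the genotype Nf1 flox/mut; GFAP-Cre. All cells of these mice carry the mutated allele, the floxed allele is lost where GFAP-Cre has been active, and the mice were 12 weeks of age. By the labels, nerves of 10 mice went into a suspension, but the study treats its libraries as individual tumors. The title of C-ON has the word control, yet its genotype is NF1-OPG like that of FMC_new, and the labels do not explain the word. The protocol shared by the libraries also mentions cells of the meningeal dura, while both libraries are labelled as optic nerve. There was thus 1 condition with 2 libraries and no tumor-free nerve, and comparisons were made between cell classes within each library.

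Notch receptors sit on the cell surface and are bound by Delta and Jagged ligands of neighbouring cells. Binding lets ADAM proteases and gamma-secretase cut the receptor, and the freed intracellular part joins *Rbpj* in the nucleus to switch on *Hes* and *Hey* genes, which encode repressors. Not all members act in this line: *Dll3* stays mostly inside the cell and does not activate receptors of neighbours, and *Hes6* can oppose *Hes1*. In the oligodendrocyte lineage, Notch signaling is known for holding precursors back from maturation.

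On the mouse build GRCm38, the receptors lie at chr2:26457903-26516663 (*Notch1*, minus strand), chr3:98013527-98150361 (*Notch2*, plus strand) and chr17:32120820-32166852 (*Notch3*, minus strand). The ligands lie at chr17:15367354-15376872 (*Dll1*), chr7:28293553-28302238 (*Dll3*) and chr2:137081456-137116644 (*Jag1*), all on the minus strand. The hairy-related factors lie at chr16:30064384-30067796 (*Hes1*, plus), chr4:154960923-154962371 (*Hes5*, plus), chr1:91411483-91414038 (*Hes6*, minus) and chr3:8663359-8667256 (*Hey1*, minus). Other annotated genes overlap 5 of them. *Gm17276* runs antisense to *Notch3* and had 15 and 413 UMIs (unique molecular identifiers, each marking 1 captured molecule) in C-ON and FMC_new, against 7 and 157 of *Notch3*, and *Gm20421* runs antisense to *Hes5* with 3 and 7 UMIs. *Notch1* is overlapped by *0610009E02Rik* and *Gm13568*, *Notch2* by *Gm42819* and *Gm42820*, and *Dll1* by *A930024N18Rik*. The genes over *Notch2* lie on its own strand, so strand does not separate them. Neither these nor *A930024N18Rik* are among the counted genes. Whether the counting used the strand is not given in the sources used here, so counts of *Notch1*, *Notch3*, *Dll1* and *Hes5* are uncertain to that extent.

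Promoter sequences were found in RefSeq (GRCm38.p6) for 8 of the 10 genes. *Hes1* and *Hey1* had no entry. For 3 of them, the target with the highest astrocyte-like level and the 2 Delta ligands described below, the 250 bases before the RefSeq start are printed to show the letters that known regulators prefer. Capitals mark GTGGGAA in *Hes5*, the core letters bound by *Rbpj*, and CAGCTG in *Dll1* and *Dll3*, a form of the E-box, the letters bound by many basic helix-loop-helix factors.
Hes5 (chr4:154960673-154960922, plus strand): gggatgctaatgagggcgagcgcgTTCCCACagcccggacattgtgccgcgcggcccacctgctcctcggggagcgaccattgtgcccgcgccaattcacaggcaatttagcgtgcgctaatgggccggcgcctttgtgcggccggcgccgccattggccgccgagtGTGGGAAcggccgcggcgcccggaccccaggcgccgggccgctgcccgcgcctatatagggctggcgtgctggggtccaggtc
Dll1 (chr17:15376933-15377182, minus strand): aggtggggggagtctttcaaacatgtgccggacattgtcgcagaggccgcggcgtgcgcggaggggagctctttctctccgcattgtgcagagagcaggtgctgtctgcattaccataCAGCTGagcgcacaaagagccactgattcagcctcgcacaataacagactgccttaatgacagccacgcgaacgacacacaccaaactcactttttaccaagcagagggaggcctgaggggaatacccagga
Dll3 (chr7:28301786-28302035, minus strand): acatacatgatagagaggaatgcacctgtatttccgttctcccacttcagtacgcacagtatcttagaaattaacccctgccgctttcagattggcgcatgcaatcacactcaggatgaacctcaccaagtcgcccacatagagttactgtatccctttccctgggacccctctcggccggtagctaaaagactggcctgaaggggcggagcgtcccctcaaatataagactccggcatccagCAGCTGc
The *Hes5* window held GTGGGAA at -226 on the reverse strand and at -83 on the forward strand, counted as bases before the start. None of the other promoters found for the members held it on either strand, and 6.38% of 32851 promoters of 300 bases did. CAGCTG, which reads the same on both strands, began at -132 in *Dll1* and at -7 in *Dll3*. RefSeq lists a second *Dll1* promoter, at chr17:15375774-15376073, which did not hold it. It was also found once in *Jag1* (-82) and in each of the 2 promoters of *Hes6* (-171 and -150), and 16.3% of all promoters held it. A match describes letters only and is not a site of binding.

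The libraries held 10845 and 21341 barcodes with 85101211 and 129113325 UMIs in C-ON and FMC_new. After filtering, 8834 cells of C-ON and 16818 of FMC_new were kept, with medians of 6810.5 and 4676 UMIs. The cells fell into 46 clusters, of which 37 were placed in 16 classes from marker lists, and the classes are called by those lists with the ending -like. Tumor-like cells numbered 217 in C-ON and 1404 in FMC_new. Their markers (*Pdgfra*, *Cspg4*, *Vcan*, *Gpr17* and others) are also those of normal oligodendrocyte precursors, and the 2 cannot be told apart here. All 13 markers of that list were found, with a summed level of 12944 CPM in C-ON and 11317 CPM in FMC_new, where CPM is the share of a gene in all UMIs of the class, scaled to 1e6. The class was named from these markers, so their level is no separate support for the name. All 13 were also found in oligodendrocyte-like cells, at 131 and 152 CPM. Oligodendrocyte markers summed to 11357 and 6358 CPM in tumor-like cells, against 11998 and 4793 CPM in T cell-like cells. A class was given a value in a library with 20 or more cells, which left astrocyte-like cells (19 and 151 cells) with a value in FMC_new only. No cluster was named endothelial-like or mural-like from the marker lists, so that 2 comparisons that had been planned gave no value, and 15 and 9 cells had UMIs of 3 or more markers of these lists. In sums over a class, fewer cells that express a gene and less RNA in each cannot be told apart. The libraries share 188 barcodes among kept cells, and all intervals cover counting error only.

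*Notch1*, the main receptor of the oligodendrocyte lineage, was at one of its highest levels in tumor-like cells. Its level there was 63.2 CPM in C-ON and 64.0 CPM in FMC_new (63.6 ± 0.565, SD, n = 2 libraries). Plasmacytoid dendritic cell-like (63.6 CPM), neutrophil-like (60.2 CPM) and astrocyte-like cells (59.9 CPM), each with a value in FMC_new only, were not separated from them by their 95% counting intervals. T cell-like cells followed with 42.3 and 61.6 CPM, separated from tumor-like cells in C-ON but not in FMC_new. Oligodendrocyte-like cells had 1.03 and 3.59 CPM, fibroblast-like cells 0 and 2.19 CPM, and neuron-like cells no UMI in either library.

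*Notch2* showed another order. Neutrophil-like cells had 124 CPM, fibroblast-like cells 100 CPM in C-ON and 113 CPM in FMC_new, and dendritic cell-like cells 102 and 98.6 CPM. In tumor-like cells it was 3.95 CPM in C-ON and 8.50 CPM in FMC_new, from 5 and 67 UMIs. Tumor-like, oligodendrocyte-like (5.53 and 7.34 CPM), plasma cell-like (3.17 and 6.29 CPM) and neuron-like cells (10.9 and 0 CPM) formed the low end, and the tumor-like interval overlapped each of the others within a library. It lay below those of fibroblast-like cells, of every myeloid class and of T, NK and B cell-like cells.

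*Notch3*, a receptor known from mural cells, was close to 0 outside 1 named class. Astrocyte-like cells had 35.5 CPM (interval 20.3 to 57.6) from 16 UMIs. Tumor-like cells had 1 UMI in C-ON and 5 in FMC_new, which is 0.790 and 0.635 CPM. Of the 28 class and library values, 18 were 0.

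Of the ligands, *Dll1* and *Dll3* had their highest level in tumor-like cells. *Dll3* reached 129 CPM in C-ON and 91.8 CPM in FMC_new in tumor-like cells, from 163 and 723 UMIs, and was higher than in any other named class. The 2 libraries differed beyond counting error, with intervals of 110 to 150 and 85.2 to 98.7 CPM. The next classes were pituitary endocrine-like cells with 10.3 CPM in FMC_new, and neuron-like cells with 7.26 and 11.6 CPM from 2 UMIs in each library. At least 1 UMI of *Dll3* was found in 45.2% of tumor-like cells of C-ON and 34.0% of those of FMC_new. T cell-like cells, which should lack the gene, had 0 of 972 and 0 of 3444 cells, which allows shares of up to 0.309% and 0.0871% of cells with a UMI. These limits hold at the depth of those cells and say nothing of cells that express the gene without a UMI. Median depths were 5313 and 5413.5 UMIs in tumor-like and 3203.5 and 3001 UMIs in T cell-like cells. With each cell thinned to 1000 UMIs, 9.39% and 7.74% of tumor-like cells still had a UMI of *Dll3*, against none of the T cell-like cells.

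*Dll1* is a ligand that activates receptors of neighbouring cells. Its level in tumor-like cells was 43.4 CPM in C-ON and 35.7 CPM in FMC_new (39.5 ± 5.49, SD, n = 2). Plasmacytoid dendritic cell-like cells had 12.7 CPM from 4 UMIs, and NK cell-like cells had 10.8 and 10.7 CPM from 5 and 11 UMIs. The tumor-like values lay above these, although the interval of the plasmacytoid class, 3.47 to 32.6 CPM, reached that of the tumor-like cells in FMC_new. All other classes were at or under 10.3 CPM, with 0 UMIs in astrocyte-like, neutrophil-like and fibroblast-like cells. A UMI of *Dll1* was found in 19.4% and 14.3% of tumor-like cells and in 0.206% and 0.174% of T cell-like cells.

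*Jag1* was present in tumor-like cells at 13.4 and 12.6 CPM, a level shared with other classes. Fibroblast-like cells had 12.1 and 12.6 CPM, macrophage-like cells 6.28 and 13.8 CPM, and ILC2-like cells 11.8 and 10.3 CPM. The intervals of none of these 3 classes were separated from that of tumor-like cells, and those of ILC2-like cells rest on 1 and 3 UMIs. Oligodendrocyte-like cells had 0.280 and 0.686 CPM.

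**Figure D1:**
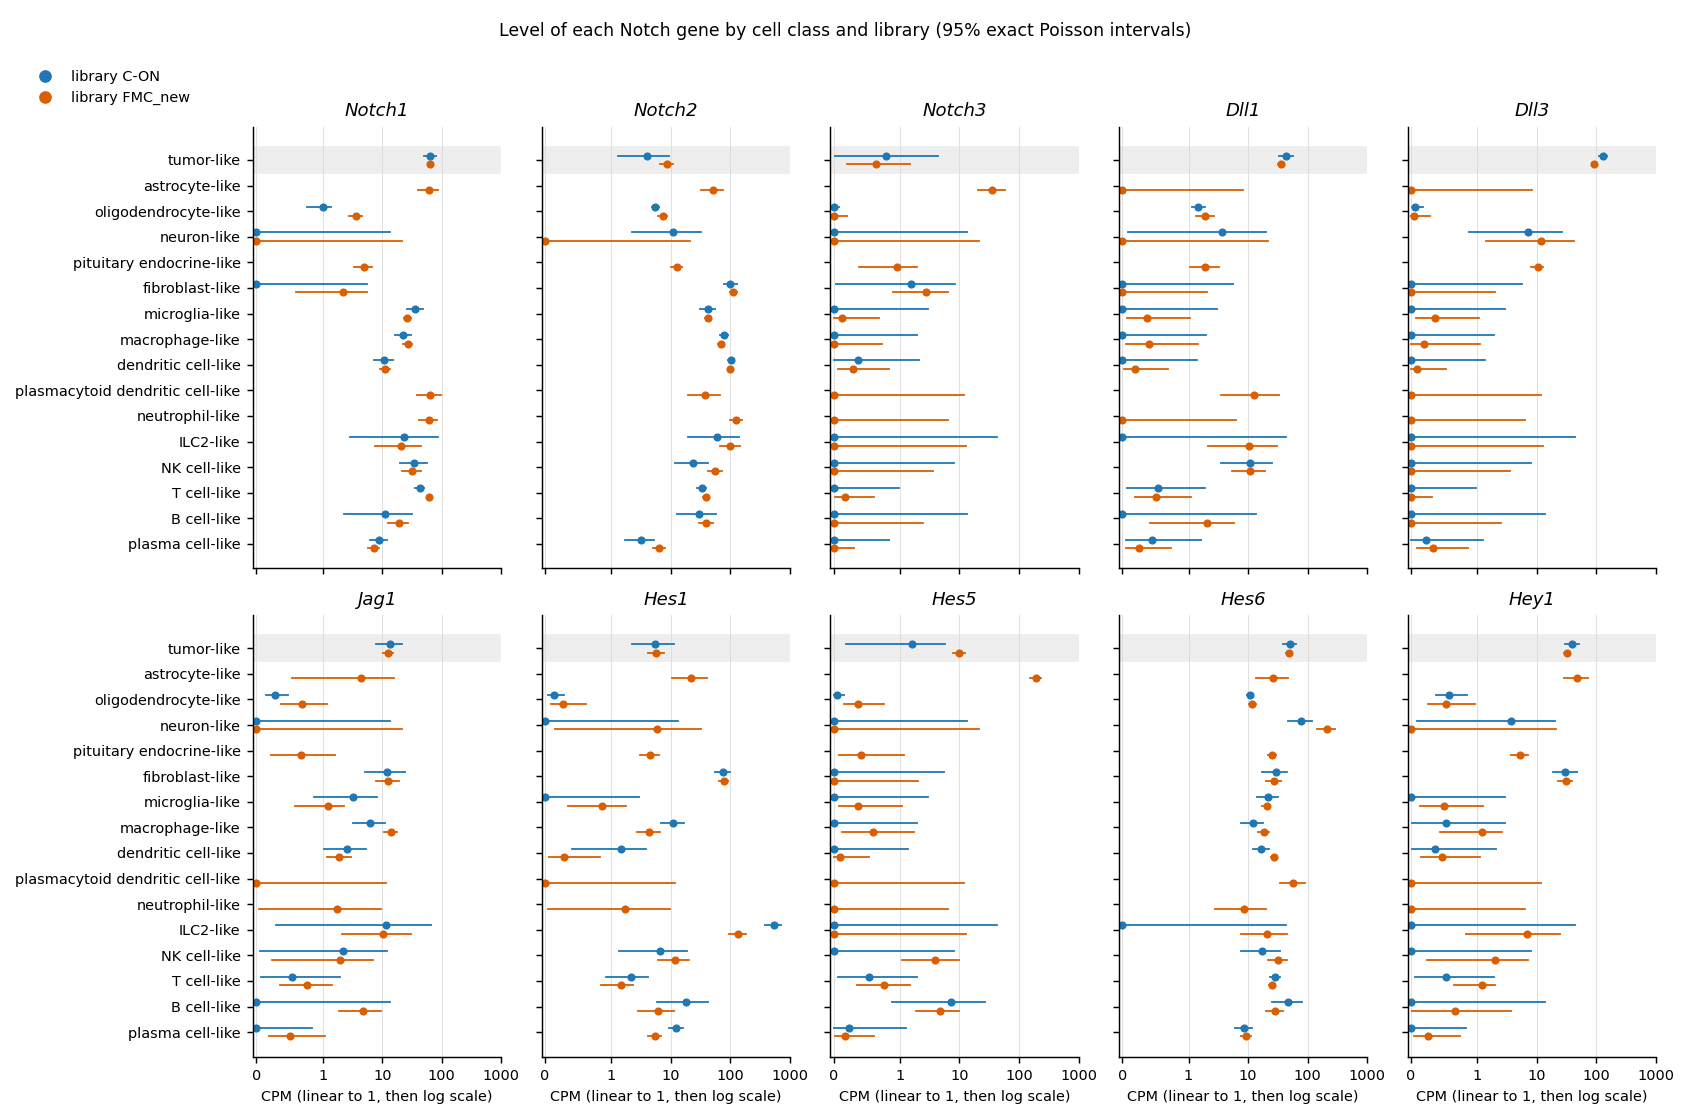
Level of the 10 Notch genes (CPM, horizontal axis, linear to 1 and logarithmic above) in each class with 20 or more cells, for C-ON (blue) and FMC_new (orange), with exact Poisson 95% intervals as lines and the tumor-like class shaded. Dll3 in tumor-like cells (129 and 91.8 CPM) stands above every other class, Notch2 stands at the low end there (3.95 and 8.50 CPM), and Hes5 and Notch3 peak in astrocyte-like cells (191 and 35.5 CPM).

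Among the hairy-related factors, *Hey1* and *Hes6* were near the top of their own order in tumor-like cells, and *Hes1* was not. *Hey1*, a target in many tissues, had 39.5 CPM in C-ON and 32.4 CPM in FMC_new there. Astrocyte-like cells had 46.6 CPM and fibroblast-like cells 30.4 and 30.6 CPM, and the intervals of these 3 classes overlapped. All other classes with values were at or under 6.87 CPM. A UMI of *Hey1* was found in 18.9% and 14.7% of tumor-like cells and in 0.103% and 0.319% of T cell-like cells.

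*Hes6* was found in every class, with 1 of 28 values at 0, and had 50.5 and 47.7 CPM in tumor-like cells (49.1 ± 1.99, SD, n = 2). Neuron-like cells were higher, with 76.2 CPM in C-ON and 208 CPM in FMC_new from 21 and 36 UMIs. The intervals of the neuron-like values did not overlap each other, and in C-ON that of the neuron-like cells overlapped that of the tumor-like cells. Plasmacytoid dendritic cell-like cells had 57.3 CPM. Oligodendrocyte-like cells had 10.6 and 11.7 CPM.

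*Hes1*, a widely used readout of Notch signaling, was at 5.53 and 5.71 CPM in tumor-like cells, from 7 and 45 UMIs. Fibroblast-like cells had 74.4 and 77.2 CPM. The highest value was in ILC2-like cells (type 2 innate lymphoid cells), with 530 CPM in C-ON and 134 CPM in FMC_new, and the libraries differed by more than their intervals there. The class held 27 and 67 cells. Microglia-like cells had 0 and 0.860 CPM and oligodendrocyte-like cells 0.129 and 0.264 CPM.

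*Hes5*, a target known from neural stem cells and astrocytes, was at 191 CPM (interval 153 to 236) in astrocyte-like cells, from 86 UMIs. Its level in tumor-like cells was 1.58 CPM in C-ON and 9.77 CPM in FMC_new, from 2 and 77 UMIs. These intervals, 0.191 to 5.70 and 7.71 to 12.2 CPM, did not overlap, so the libraries differed beyond counting error in the tumor-like level of *Hes5*. B cell-like cells had 7.32 and 4.70 CPM from 2 and 7 UMIs, and T cell-like cells 0.533 and 0.767 CPM. Of the 28 values, 12 were 0.

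To count cells rather than molecules, each cell was thinned to 1000 UMIs and the genes were joined by role, leaving out 102 and 510 shallower cells and keeping 213 and 1330 tumor-like cells. A ligand (*Dll1*, *Dll3* or *Jag1*) was found in 16.0% of tumor-like cells of C-ON and 12.0% of those of FMC_new. No other class with a value was above 3.57%, the share in NK cell-like cells of C-ON. A receptor was found in 7.51% and 8.42% of tumor-like cells, close to the 8.44% and 10.3% of T cell-like cells. A target (*Hes1*, *Hes5* or *Hey1*) was found in 5.63% and 3.91% of tumor-like cells, against 18.8% of astrocyte-like cells and 0.211% and 0.423% of T cell-like cells.

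**Figure D2:**
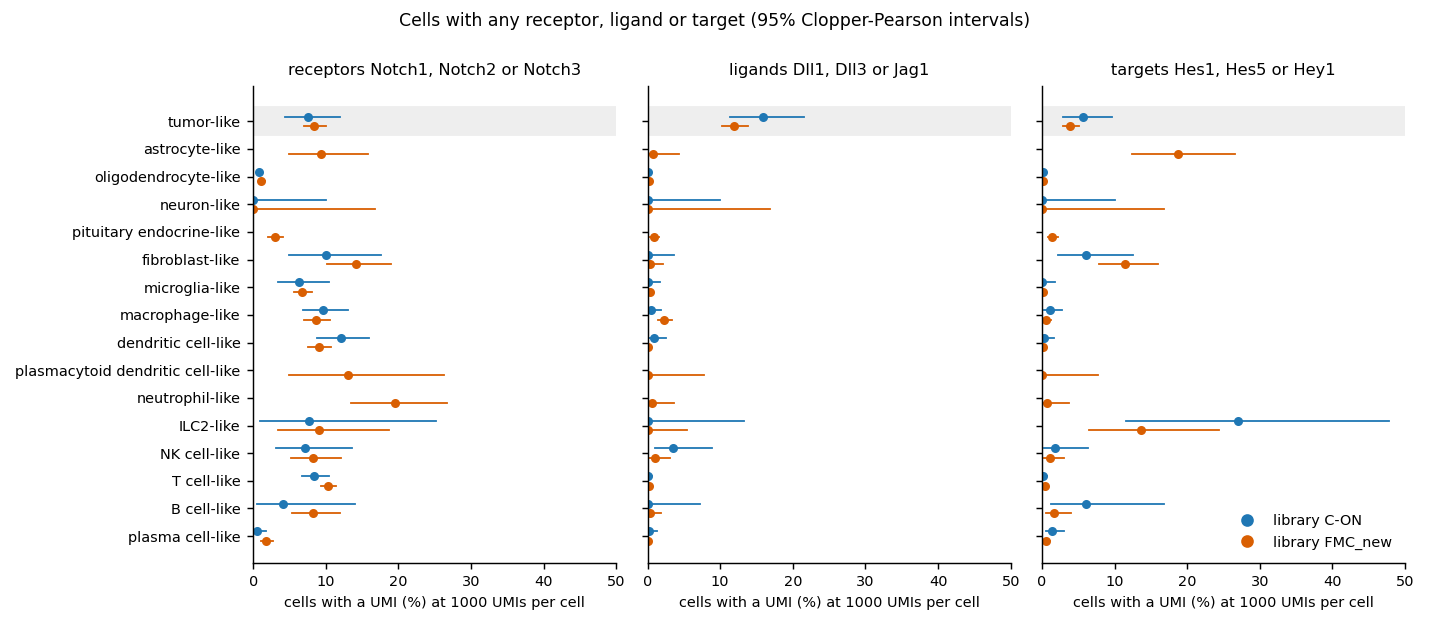
Percent of cells (horizontal axis) with a UMI of any of the 3 receptors, 3 ligands or 3 targets after each cell was thinned to 1000 UMIs, by class, for C-ON (blue) and FMC_new (orange), with Clopper-Pearson 95% intervals. Ligand-positive cells are most common in the tumor-like class (16.0% and 12.0%), while target-positive cells are most common in ILC2-like (26.9% and 13.6%) and astrocyte-like cells (18.8%).

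Tumor-like cells were next compared with 6 other classes. A gene was called higher when its CPM was at least 2 times that of the other class in each library with 20 or more cells of both, and lower likewise, among genes with 10 or more UMIs in the 2 classes together in each such library. Since the classes were cut from the same cells and there were 2 libraries of 1 condition, the differences were not tested and have no p-value. Members with too few UMIs in a comparison are named, since a member could pass that limit through a single class alone.

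Oligodendrocyte-like cells are the mature myelin-forming cells of the nerve. Of the 10 members, 8 could be compared, and 7 were higher in tumor-like cells (*Notch1*, *Dll1*, *Dll3*, *Jag1*, *Hes1*, *Hes6* and *Hey1*), beside 26.6% of all 15290 genes compared. None was lower, beside 8.53% of all genes, and *Notch2* was neither. *Notch1* was 61.2-fold higher in C-ON (interval 42.3 to 89.4) and 17.8-fold in FMC_new (13.8 to 23.3), and the fold differed between the libraries as the oligodendrocyte-like level did. *Dll1* was 29.7-fold and 18.8-fold higher, and *Hey1* 68.0-fold and 61.3-fold. *Hes6* was 4.77-fold and 4.07-fold higher, the smallest fold of the 7. For *Dll3* the oligodendrocyte-like cells held 3 and 1 UMIs, so its ratios of 1995 (671 to 9772) and 1738 (311 to 68758) have wide intervals. *Notch3* had 1 and 5 UMIs in tumor-like and none in oligodendrocyte-like cells, and *Hes5* had 2 and 77 against 2 and 7, and both were under the limit of 10 UMIs in C-ON. With counts under 3 set to 3, the median log2 ratio was 4.91 over the 8 members and 0.49 over all genes.

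Against astrocyte-like cells, with values in FMC_new only, the members split. *Dll1*, *Dll3* and *Jag1* were higher in tumor-like cells, 3 of 10 members, which is near the 24.3% of all 15271 genes. *Notch2*, *Notch3*, *Hes1* and *Hes5* were lower, 4 of 10 beside 14.0% of all genes. Astrocyte-like cells had no UMI of *Dll3* or *Dll1*, so both passed the limit of 10 UMIs through tumor-like cells alone. Against a floor of 3 counts in that library, the tumor-like levels were 13.8-fold and 5.36-fold higher, with lower interval limits of 11.2 and 4.33. The call of *Jag1* rests on 2 UMIs in astrocyte-like cells, with a ratio of 2.83 (interval 0.764 to 23.7). It is lost at 3-fold, with SCTransform, and where counts under 3 are set to 3. In that last setting 12.2% of all genes were higher, and of the members *Dll1* and *Dll3*. In the other direction, astrocyte-like cells had 19.5-fold more *Hes5*, 55.9-fold more *Notch3* and 3.88-fold more *Hes1*, and *Notch2* was at 51.0 CPM against 8.50 CPM. *Notch1* (ratio of tumor-like over astrocyte-like 1.07, interval 0.725 to 1.64), *Hes6* (1.79) and *Hey1* (0.695, with an interval that included 1) were under 2-fold. The median log2 ratio was -0.22 over the members and -0.11 over all genes. The astrocyte-like class is shallow, with a median of 2435 UMIs, and 9 of the 11 pituitary endocrine markers summed to 33188 CPM there, against 6150 CPM in tumor-like and 7131 CPM in T cell-like cells of FMC_new. The part of this in the comparison was not tested.

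Against fibroblast-like cells, *Notch1*, *Dll1* and *Dll3* were higher in tumor-like cells, 3 of the 8 members compared beside 19.0% of all genes, and *Notch2* and *Hes1* were lower, beside 10.1%. *Notch2* was 25.4-fold and 13.3-fold higher in fibroblast-like cells, and *Hes1* 13.5-fold in both libraries. *Notch1* had no UMI in fibroblast-like cells of C-ON. Against a floor of 3 counts the tumor-like level was 13.9-fold higher there (lower interval limit 11.0), and the fold was 29.2 in FMC_new. *Jag1*, *Hes6* and *Hey1* stayed under 2-fold, with ratios of 1.11 and 0.998 for *Jag1* and of 1.30 and 1.06 for *Hey1*. *Notch3* and *Hes5* had too few UMIs.

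The last 3 comparisons were with immune classes. Against microglia-like cells, *Dll1*, *Dll3*, *Jag1*, *Hes6* and *Hey1* were higher (5 of 7 compared, beside 31.7% of all genes), while *Notch3*, *Hes1* and *Hes5* had too few UMIs. Against macrophage-like cells, *Notch1*, *Dll1*, *Dll3*, *Hes6* and *Hey1* were higher (5 of 8, beside 30.9%). Against T cell-like cells, *Dll1*, *Dll3*, *Jag1*, *Hes1* and *Hey1* were higher (5 of 8, beside 27.9%), and in these 2 comparisons *Notch3* and *Hes5* had too few UMIs. *Notch2* was the only member lower in tumor-like cells in each of the 3, beside 11.5%, 12.1% and 13.3% of all genes, and it was 10.6-fold and 4.95-fold higher in microglia-like cells. The call of *Hes1* against T cell-like cells was the least stable, being made under 9 of the 14 alternative settings. *Dll3* had no UMI in T cell-like cells. Against a floor of 3 counts there it was 161-fold and 359-fold higher, with lower interval limits of 130 and 291. *Dll1* was 81.6-fold (21.5 to 690) and 69.8-fold (31.6 to 192) higher than in T cell-like cells.

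**Figure D3:**
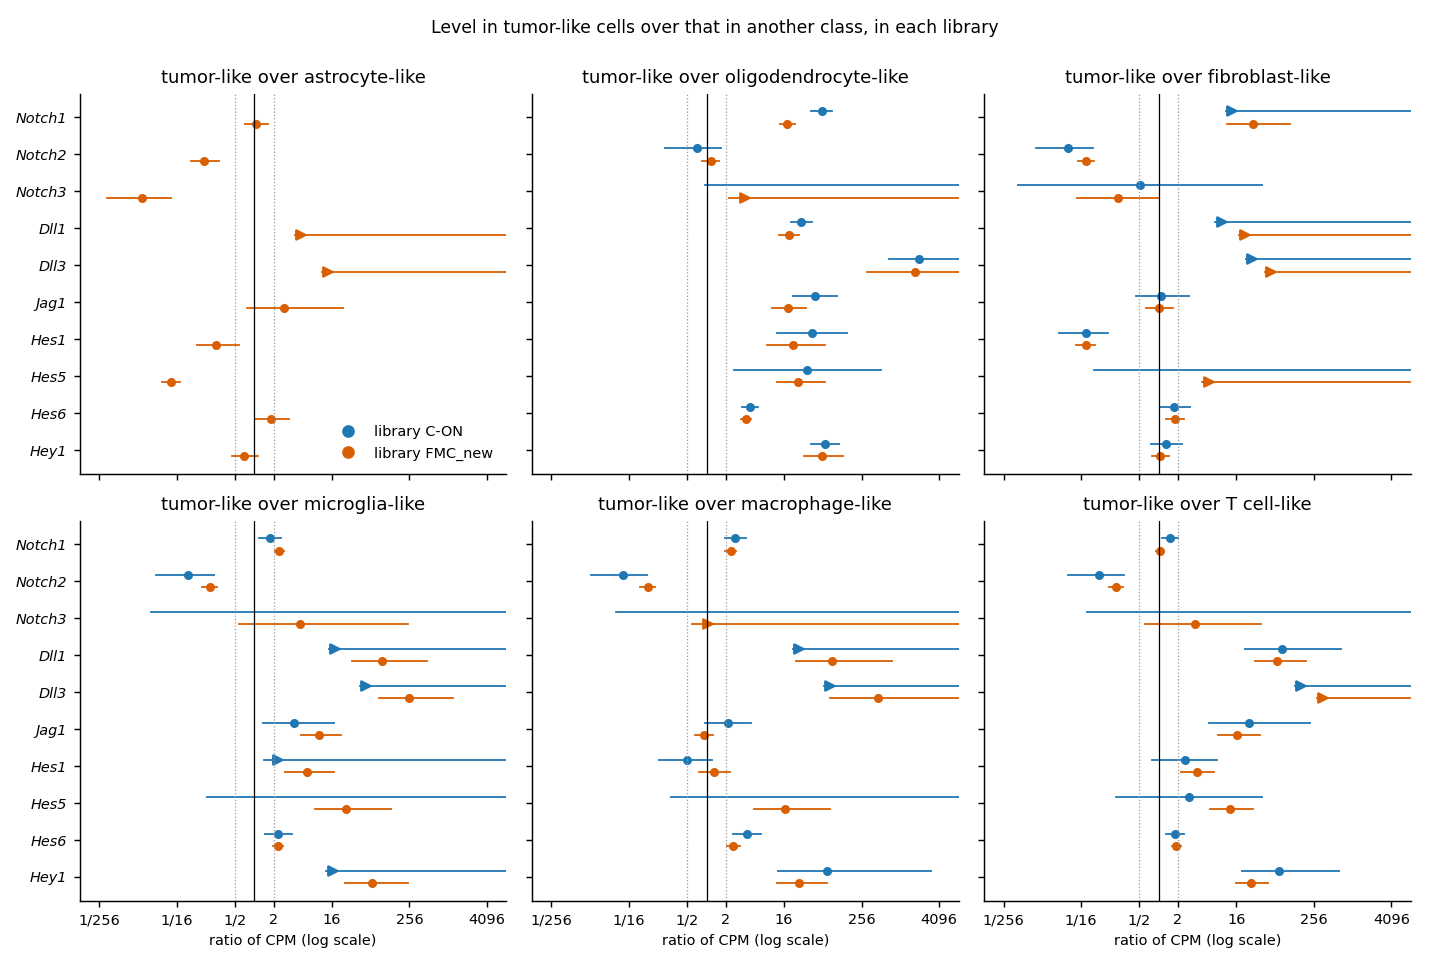
Ratio of the level in tumor-like cells to that in 6 other classes (horizontal axis, log scale) for C-ON (blue) and FMC_new (orange). Lines are 95% intervals that cover counting error, and dotted lines mark 2-fold. Triangles stand for cases where the other class had no UMI and give the fold against the floor of counts used in the text. They are not lower bounds, since the lower interval limits lie below them. Dll3 lies right of 2-fold in every panel, Notch2 lies left of the lower 2-fold line in all but the oligodendrocyte-like panel, and Notch1, Hey1 and Hes6 lie within 2-fold of astrocyte-like cells.

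The tumor-like class held 2 clusters, and the Notch genes differed between them. The cluster led by *Cspg5*, *Lhfpl3*, *Vcan*, *C1ql1* and *Pdgfra* held 168 and 878 cells, and the one led by *Gpr17*, *Tnr* and *Neu4* held 49 and 526 cells. *Gpr17* itself, a receptor of committed precursors, was at 206 and 210 CPM in the *Cspg5*-led cluster and at 181 and 209 CPM in the *Gpr17*-led one. *Dll1* was 4.13-fold and 4.51-fold higher in the *Cspg5*-led cluster, *Dll3* 4.07-fold and 3.36-fold, *Notch1* 3.99-fold and 2.06-fold and *Hey1* 2.37-fold and 3.11-fold. *Dll3*, for example, was at 158 and 114 CPM in the *Cspg5*-led and at 38.8 and 33.9 CPM in the *Gpr17*-led cluster. *Notch2* went the other way, with 2.09 and 3.34 CPM against 9.69 and 22.0 CPM. *Rbpj* was lower in the *Cspg5*-led cluster (50.2 and 40.7 CPM against 90.4 and 69.1 CPM).

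The *Gpr17*-led cluster also carried RNA of other cells. Immunoglobulin genes made up 11.0% of its UMIs in C-ON and 9.37% in FMC_new, against 0.191% and 0.721% in the *Cspg5*-led cluster and 0.200% and 1.40% in T cell-like cells. Its median depth was 5829 UMIs in C-ON and 2297 UMIs in FMC_new, against 5313 and 6247 UMIs. The part of these in the difference between the clusters was not tested. Without the *Gpr17*-led cluster, the tumor-like level of *Notch2* went from 6.23 to 2.71 CPM (mean of the libraries) and that of *Notch3* from 0.712 to 0.0878 CPM, while *Dll3* went from 110 to 136 CPM and *Notch1* from 63.6 to 76.0 CPM. *Notch2* then became lower than in oligodendrocyte-like cells by the 2-fold rule.

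Tumor-like cells were also split by the *Gpr17* UMIs of each cell. Cells with 2 or more UMIs of *Gpr17* numbered 52 and 313, and those without numbered 113 and 833. *Dll1* was at 74.2 and 61.0 CPM in the former and at 20.6 and 22.7 CPM in the latter, a 3.61-fold and 2.68-fold difference, and the interval of the ratio did not include 1 in either library. *Dll3* was at 131 and 103 CPM in the former and at 106 and 76.6 CPM in the latter, with an interval that included 1 in C-ON only. *Hes5* was at 23.0 CPM against 2.15 CPM in FMC_new, a 10.7-fold difference, while C-ON had 2 UMIs against 0. *Notch2* was higher in cells without *Gpr17* in FMC_new, at 11.3 CPM against 4.87 CPM (2.31-fold, interval 1.18 to 4.94). In C-ON it had 1 UMI in cells without *Gpr17* and 2 in those with 2 or more. *Notch1* (62.7 and 57.5 against 64.8 and 63.9 CPM), *Hey1* and *Jag1* were under 1.5-fold in each library. Cells with *Gpr17* were deeper, with medians of 6536.5 and 6631 UMIs against 4949 and 4472. With each cell thinned to 2000 UMIs, *Dll1* remained higher in cells with a UMI of *Gpr17*, by 3.23-fold and 1.76-fold, and *Hes5* by 4.27-fold in FMC_new.

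**Figure D4:**
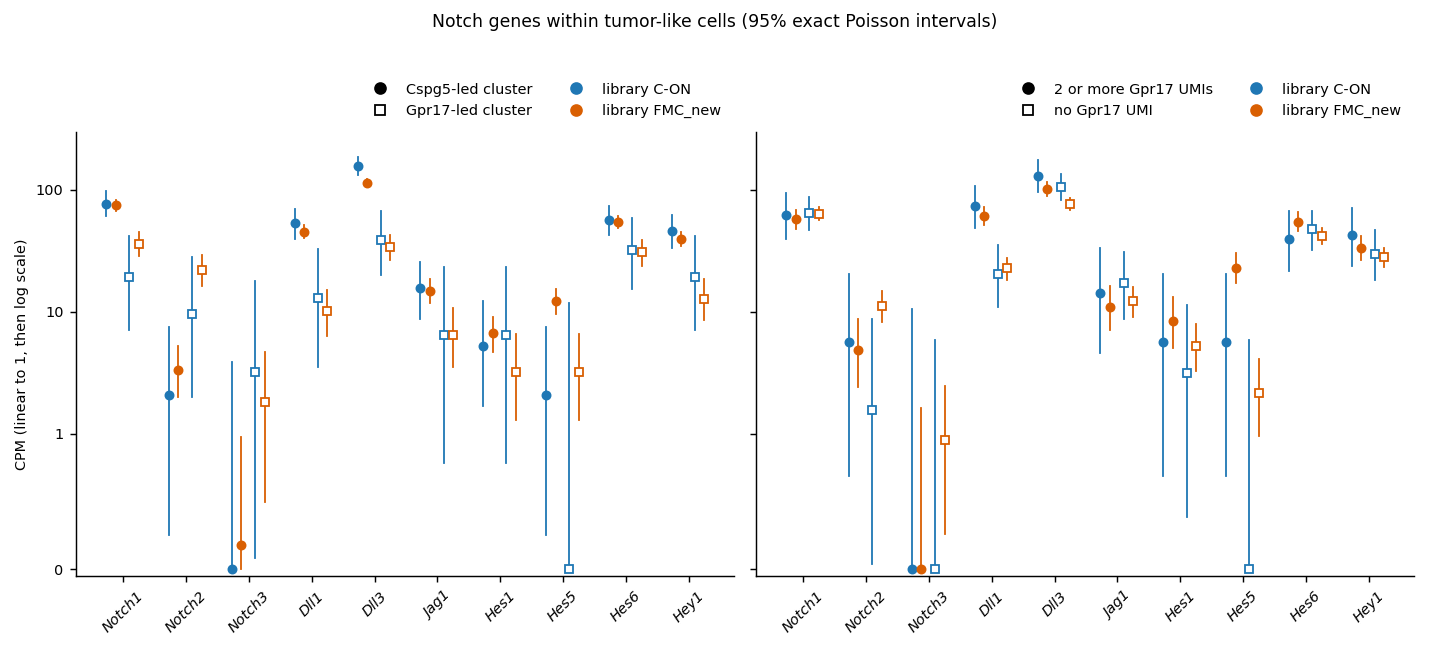
Level of the 10 genes within tumor-like cells (CPM, vertical axis, linear to 1 and logarithmic above) for C-ON (blue) and FMC_new (orange), with exact Poisson 95% intervals. At left, the Cspg5-led cluster (filled) stands above the Gpr17-led cluster (open) for Notch1, Dll1 and Dll3 and below it for Notch2 in FMC_new. At right, cells with 2 or more Gpr17 UMIs (filled) stand above cells without (open) for Dll1 in both libraries and for Hes5 in FMC_new.

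Tumor-like cells of FMC_new were last split by cell cycle genes. Of these cells, 77 had 2 or more cell cycle genes and 1192 had none, while C-ON had 7 of the former, too few for a value. *Dll1* was at 12.3 CPM in the former and 38.0 CPM in the latter, *Dll3* at 57.0 and 94.0 CPM, *Jag1* at 3.08 (2 UMIs) and 13.7 CPM and *Hey1* at 13.9 and 35.5 CPM. *Hes6* was also lower in the former, at 21.6 and 50.6 CPM (ratio 0.426, interval 0.230 to 0.725). *Notch2* was higher in the former, at 16.9 and 5.81 CPM (ratio 2.91, interval 1.34 to 5.83). *Gpr17*, which was used for the split above, was at 50.8 CPM in the former and 227 CPM in the latter. *Notch1* was at 78.5 and 64.1 CPM, and the interval of its ratio included 1. Cells with cell cycle genes were deeper, with a median of 9267 UMIs against 5277.5, and the part of depth in this was not tested.

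UMIs of a receptor and a ligand were in some cases found in the same tumor-like cell. With 2000 UMIs per cell, *Notch1* and *Dll3* were both found in 7 of 203 cells of C-ON and 26 of 1161 cells of FMC_new. A UMI of *Dll3* was thus present in 7 of 24 and 26 of 130 cells with *Notch1*, and in 17.3% and 14.9% of those without. *Notch1* and *Dll1* were both found in 2 and 11 cells, so that *Dll1* was present in 8.33% and 8.46% of cells with *Notch1* and in 9.50% and 6.60% of those without. *Notch1* and *Jag1* were both found in 1 and 3 cells. These counts are sparse and are given as a description.

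The other genes of the pathway were read from a list of 49 genes in order of role, from ligands to targets. With fibroblast-like, microglia-like, macrophage-like and T cell-like cells, 40, 40, 41 and 40 of them could be compared, of which 12, 13, 10 and 13 were higher in tumor-like cells and 2, 7, 6 and 5 lower. Of all genes compared, 19.0%, 31.7%, 30.9% and 27.9% were higher in the same order, and 10.1%, 11.5%, 12.1% and 13.3% lower. Against oligodendrocyte-like cells, 43 could be compared, of which 15 were higher in tumor-like cells, beside 26.6% of all genes, and 2 lower, beside 8.53%. The higher ones included the Notch-like ligands *Dlk1* and *Dner*, *Neurl1a*, the Fringe enzymes *Lfng*, *Mfng* and *Rfng*, which add sugars to the receptors, the secretase subunit *Aph1c*, the coactivator *Maml2*, the regulators *Numbl*, *Dtx1*, *Dtx3*, *Dtx4* and *Nrarp*, and the target *Hey2*. *Kat2b* was lower, with 43.4 and 35.9 CPM against 149 and 154 CPM, as was *Hes3*, with 0 and 2 UMIs in tumor-like cells. *Dner* had 159 and 134 CPM against 12.8 and 16.8 CPM, and *Maml2* 261 and 204 CPM against 11.2 and 17.8 CPM. *Mfng* had only 1 UMI in tumor-like cells of C-ON. *Dlk1* was also a leading gene of a pituitary endocrine-like cluster. Pituitary endocrine markers summed to 86.9 and 6150 CPM in tumor-like cells, against 9.40 and 3235 CPM in oligodendrocyte-like cells. The part of this in the call of *Dlk1* was not tested. The median log2 ratio over the list was 0.88, against 0.49 over all genes.

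Against astrocyte-like cells in FMC_new, 44 of the 49 could be compared, of which 5 were higher (beside 24.3% of all genes), *Dlk2*, *Poglut1*, *Maml3* and *Kat2a* among them, and 3 lower (beside 14.0%), *Lfng*, *Nrarp* and *Heyl*. *Maml3* was 9.68-fold higher (interval 3.76 to 35.6). The interval for *Kat2a*, 0.949 to 9.18, included 1. *Lfng* had 186 CPM in astrocyte-like and 16.5 CPM in tumor-like cells, *Nrarp*, a feedback regulator switched on by Notch, 109 and 15.0 CPM, and *Heyl* 44.4 and 0.254 CPM. *Rbpj*, the nuclear partner of the receptors, was at 60.01 and 48.6 CPM in tumor-like cells and at 331 and 274 CPM in dendritic cell-like cells. *Notch4* was at 0.790 and 2.79 CPM, *Jag2* at 0 and 0.508 CPM and *Dll4* at 0 and 0.127 CPM in tumor-like cells, and *Notch4* was at 13.3 and 9.51 CPM in dendritic cell-like cells. *Dll4* had 22.3 CPM in plasmacytoid dendritic cell-like cells, from 7 UMIs.

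For each member, the genes with the most similar order across classes were found over the 28 class and library sums. These sums share libraries, depth and many values of 0, and the coefficients are a description. For *Dll3* the nearest genes were *Pcdhb2* (Pearson r of log2(CPM + 1) = 0.99), *Zfp804a* (0.97) and *A330102I10Rik* (0.96). *Hey1* was nearest to *Adamts9* (0.94) and *Capn6* (0.92), *Notch3*, with 42 UMIs in all, to *Frem2* (0.94) and *Sfrp5* (0.92), and *Hes5* to *2900052N01Rik*, *Kcne1l* and the astrocyte gene *Aqp4* (all 0.86). *Notch1* was nearest to *Itpr2* (0.84), *Irf1* (0.82) and *Maml2* (0.82), *Notch2* to *Tmem179b* (0.90), *Mknk2* (0.88) and *Stat6* (0.86), and *Hes6* to *Rars2* (0.92), *Coq3* (0.90) and *Ankmy2* (0.90). The coefficients were lower for *Dll1*, with *Nme3* at 0.76, *Hes1*, with *Chad* at 0.78, and *Jag1*, with *Mxra7* at 0.85. Among the members themselves, *Hes5* and *Notch3* (r = 0.71) and *Hey1* and *Notch3* (0.70) were nearest, and *Dll3* and *Notch2* ran opposite (-0.58).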

How the data were processed

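Droplet single-cell RNA libraries were deposited as matrices of raw counts (UMIs) per gene and barcode, made by the authors with Cell Ranger on the mm10 (GRCm38) reference. The version is 7.2.0 in the file headers and differs in the methods. Cells with 500 to 5000 genes, 500 to 20000 UMIs and at most 5% mitochondrial UMIs were kept. In Seurat 5.3.0 (R 4.3.3), log-normalized data were integrated by CCA on 2000 variable genes, without the 59 members and pathway genes, and clustered with 30 components at resolution 0.8, with stromal clusters clustered again. A cluster was named from 3 or more list markers, each with a UMI in 20% or more of the cells and at 2 times the mean of clusters. Clusters led by another class's markers or by cycling genes, with under 20 cells, or with no leading marker and under 60% of their list counted, stayed unnamed (9 clusters, 2220 cells, 8.65%), and the rules on leading genes were set after leading genes were seen. Scrublet (scanpy 1.11.5) called 1 of 25652 cells a doublet and thus did not work here, so no cells were removed, and the top 6% of scores were left out as an alternative.

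UMIs were summed per class and library and given as CPM with exact Poisson 95% intervals, and shares of cells with Clopper-Pearson intervals (Python 3.11.15, scipy 1.17.1). Medians of log2 ratios use counts under 3 set to 3. An earlier form of the call rule also did so and was replaced after results were seen, since the design names no such step. Among the members, this changed the call of *Jag1* against astrocyte-like cells. All 10 members are named, and for likeness the 3 genes with the highest r and 50 or more UMIs were ranked. The members and gene lists were chosen with earlier results of these data known. The calls were tested on simulated data for 1 comparison only, tumor-like with oligodendrocyte-like cells, with a simulated 4-fold change. Of the changed genes, 94.8% of those raised and 92.3% of those lowered were recovered, and 1.15% of unchanged genes were called. Smaller changes and the other comparisons were not simulated. The other libraries that the authors merged with these were not analysed here. Some genes of the lists are not reported here.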

Additional observations from a re-analysis of the deposited data

How the results depend on the processing

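With thinning to 1000 UMIs, 2 members instead of 4 were lower than in astrocyte-like cells, 0 instead of 1 lower than in microglia-like cells, and 3 instead of 5 higher than in T cell-like cells, with fewer members compared. With SCTransform, 2 were lower than in astrocyte-like cells, where 2 libraries instead of 1 and 8 members instead of 10 could be compared, without *Hes5* and *Notch3*. At 3-fold, 3 instead of 5 were higher than in macrophage-like cells. With classes from marker counts, and without the *Gpr17*-led cluster (chosen after seeing the data), 1 member, *Notch2*, was lower than in oligodendrocyte-like cells. With no filter on low counts, 8 of 10 members compared (beside 34.3% of all genes) instead of 5 of 7 were higher than in microglia-like cells, and leaving out a library gave 5 to 8, with 8 of 9 (beside 42.1%) without C-ON, where *Notch1*, *Hes1* and *Hes5* joined. The other 157 of these 166 main counts stayed within 1.5 times, and no direction was reversed. Of further counts outside the main ones, 29 moved and 81 stayed the same. The level of *Notch2* in tumor-like cells ranged from 1.40 to 8.50 CPM over the alternatives that of *Hes5* from 1.58 to 9.77 CPM, that of *Notch3* from 0.0878 to 0.790 CPM and that of *Dll1* from 35.7 to 61.4 CPM, the highest with classes from marker counts. Classes were compared within each library, and no further paired analysis was made, since the counts come from no test.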

Other observations

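Unnamed clusters of FMC_new held further Notch genes. A cluster of 289 cells led by *Mia*, *Rbpms*, *Cyp2f2*, *Folr1* and *Aldh1a2* had 183 CPM of *Hey1* (interval 163 to 205) and 65.1 CPM of *Notch3* (53.2 to 78.8). Both values were above those of every named class, and the cluster held 104 of the 157 *Notch3* UMIs counted in that library. It also had 104 CPM of *Hes1*, 86.9 CPM of *Notch2*, 40.0 CPM of *Notch1* and 11.9 CPM of *Jag1*, with 3 UMIs each of *Dll1* and *Dll3*. C-ON had 10 cells of this cluster, too few for a value.

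A cluster of 92 cells led by *Scn7a*, *Cldn10* and *Col25a1* had 132 CPM of *Hes1*, 72.3 CPM of *Notch2*, 70.2 CPM of *Hes6* and 46.8 CPM of *Hey1*, and no UMI of *Dll3*. A cluster of 607 cells led by *Srxn1*, *Cidea*, *Tbx19* and *Pomc*, a hormone gene of the pituitary, had 11.2 CPM of *Dll3*, 10.5 CPM of *Hey1*, 13.4 CPM of *Heyl* and 878 CPM of *Dlk1*. A cluster of 60 cells led by *Pltp*, *Itm2a*, *Slc2a1*, *Bsg*, *Ier3*, *Cavin2*, *Klf2*, *Cd34*, *Ramp2* and *Abcg2* had 49.6 CPM of *Notch1* from 6 UMIs.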
